A study of Homo sapiens with 6 samples.

Results

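PRF1 encodes perforin, the pore-forming protein of cytotoxic lymphocytes, and was measured here in SW1990, a human pancreatic cancer cell line of epithelial origin. It was examined together with the granzyme genes GZMA, GZMB, GZMH, GZMK and GZMM and the granulysin gene GNLY, which makes 7 genes of the 20345 in the deposited table. PRF1 was chosen by its lower counts in LRRC8A shRNA libraries than in control libraries, so its difference between these groups is a description and carries no test. The other 6 genes were added by function, to show whether PRF1 was expressed alone or with the rest of a cytotoxic programme. In control cells the shRNA was non-targeting, and in the others it was directed against LRRC8A, the essential subunit of the volume-regulated anion channel. Both shRNAs were delivered by lentivirus from pLKO.1, and the transduced cells were selected with puromycin as stable lines. The 3 libraries of each group are described as biological replicates, and the labels place all 6 in 1 batch and name 1 hairpin against LRRC8A. Nothing says whether the libraries of a group came from separate transductions, so p-values measure the spread between these libraries only.

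In T cells and natural killer cells, perforin is stored in lytic granules with granzymes and granulysin. After release onto a target cell it assembles into membrane pores, through which the granzymes, a family of serine proteases, reach the cytosol and trigger apoptosis. Perforin and the granzymes are usually expressed together in these lymphocytes, and perforin is regarded as a marker of them and not of ductal epithelium.

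Library totals were 37052641 to 42937612 counts, and 15385 to 15593 genes were detected per library. LRRC8A mRNA was lower in each LRRC8A shRNA library (37.8 to 41.6 CPM, TMM-scaled counts relative to library size) than in every control library (71.7 to 81.2 CPM). Its log2 fold change was -0.92 (SE 0.06, edgeR adjusted p = 1.46e-08). Of 13551 tested genes, 590 changed at an edgeR adjusted p under 0.05 (4.35%), of which 350 were lower (2.58%) and 240 higher (1.77%).

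PRF1 lies on the minus strand of chromosome 10 (GRCh38, 70597348 to 70602775), and its exons overlap no other gene of GENCODE 29. The counts are per gene and cannot separate its 4 annotated transcripts. The RefSeq promoter windows of PRF1 and GZMB, 250 bases before to 50 bases after the start site, are shown because lymphocytes express both genes, while in these cells PRF1 was abundant and GZMB nearly absent. Both are given 5′ to 3′ on the coding strand, for PRF1 chr10:70602692-70602991 and for GZMB chr14:24634141-24634440, both minus strand of GRCh38.p14. Capitals mark matches on either strand to GGAAGT (an ETS core), ACCACA (a RUNX core) or GGGCGG (a GC box).
PRF1: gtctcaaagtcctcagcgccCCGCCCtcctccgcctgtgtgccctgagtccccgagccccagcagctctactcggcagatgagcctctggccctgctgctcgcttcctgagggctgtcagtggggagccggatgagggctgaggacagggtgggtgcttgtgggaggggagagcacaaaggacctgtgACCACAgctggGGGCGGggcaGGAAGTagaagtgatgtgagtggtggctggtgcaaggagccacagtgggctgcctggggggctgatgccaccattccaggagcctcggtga
GZMB: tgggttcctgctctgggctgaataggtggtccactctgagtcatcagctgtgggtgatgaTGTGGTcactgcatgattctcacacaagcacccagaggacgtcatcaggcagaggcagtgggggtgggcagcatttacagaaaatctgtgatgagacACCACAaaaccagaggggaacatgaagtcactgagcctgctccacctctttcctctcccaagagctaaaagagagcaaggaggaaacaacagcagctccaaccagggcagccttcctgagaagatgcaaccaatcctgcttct
The PRF1 window held 1 ETS core, 1 RUNX core and 2 GC boxes, and the GZMB window held 2 RUNX cores and neither of the others. None of the matches in either window overlap each other. Of 35116 RefSeq promoter windows, 22.8% held the ETS core, 13.1% the RUNX core and 45.0% the GC box. The STAT palindrome TTCNNNGAA, present in 7.66% of the windows, was in neither. The PRF1 window had a GC content of 65.7% and 9 CpG dinucleotides, against 52.7% and 1 in GZMB. Of all windows, 68.7% had a lower GC content than PRF1 and 41.6% had fewer CpG dinucleotides. For GZMB these shares were 36.2% and 3.96%. The RefSeq windows of GZMA, GZMH and GNLY had 45.0%, 46.0% and 54.0% GC with 1, 0 and 4 CpG dinucleotides. They held 1, 0 and 1 RUNX cores, and no ETS core and no GC box.

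PRF1 was abundantly expressed in the control cells. PRF1 received 4879, 4915 and 5261 counts in control replicates 1 to 3, against 2901, 2870 and 2783 in LRRC8A shRNA replicates 1 to 3. Scaled to library size these were 132, 133 and 141 CPM in controls and 66.5, 76.8 and 74.3 CPM in LRRC8A shRNA libraries. The highest LRRC8A shRNA library stayed well below the lowest control library, and the deepest library, LRRC8A shRNA replicate 1, had the lowest scaled level. The group means were 135 ± 5.32 CPM in controls and 72.5 ± 5.38 CPM with LRRC8A shRNA (SD, n = 3 each). The fitted log2 fold change was -0.90 (SE 0.05), which is 46.4% less mRNA. In a bulk measurement, fewer cells that express PRF1 and less PRF1 mRNA per cell cannot be told apart.

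The deposited FPKM values, which are scaled for gene length as well, also separated the groups. PRF1 was at 45.8, 46.1 and 49.1 FPKM in control replicates 1 to 3 and at 23.7, 26.9 and 26.1 FPKM in LRRC8A shRNA replicates 1 to 3, a mean that was 45.6% lower. It ranked between 1365 and 1473 by FPKM among the 20345 genes in control libraries, and between 2702 and 3082 in LRRC8A shRNA libraries. By log2 fold change PRF1 was 85th from the lowest of all tested genes. The coefficient of variation of its CPM was 3.93% among controls, where the median tested gene had 5.25%, and 7.41% among LRRC8A shRNA libraries, where the median was 5.96%.

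**Figure D1:**
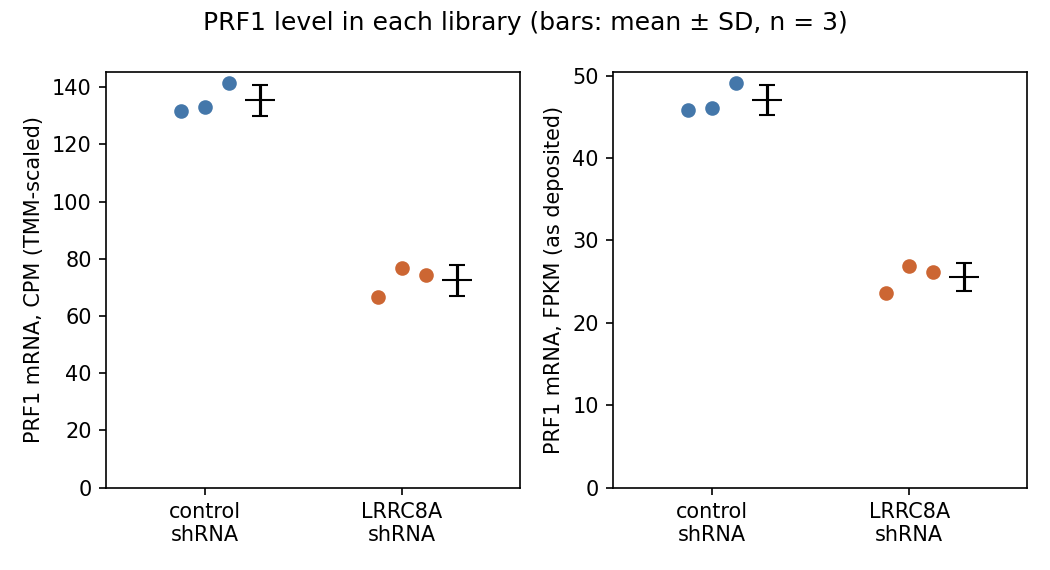
PRF1 mRNA in each of the 3 control shRNA and 3 LRRC8A shRNA libraries, as TMM-scaled CPM (left) and as deposited FPKM (right), with both axes from 0. Points are libraries and bars are mean ± SD (n = 3); the control libraries at 132 to 141 CPM lie apart from the LRRC8A shRNA libraries at 66.5 to 76.8 CPM.

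The other 6 cytotoxic effector genes were at or near 0 in every library of both groups. GZMA and GZMB, the 2 most studied granzymes, had 4, 2 and 0 counts and 0, 0 and 4 counts in control replicates 1 to 3. In LRRC8A shRNA replicates 1 to 3 they had 0, 2 and 0 counts each. GZMH, a chymotrypsin-like granzyme next to GZMB in the genome, had 0 counts in all 6 libraries, which allows at most 3 counts per library, or 0.0688 to 0.0812 CPM by counting error. GZMK, a tryptase of T cell subsets, had 2 counts in control replicate 1 and 0 elsewhere, and GNLY, the membrane-disrupting granulysin, had 5 in control replicate 1 and 0 elsewhere. The highest count belonged to GZMM, a granzyme typical of natural killer cells, with 3, 0 and 0 counts in control replicates 1 to 3 and 4, 2 and 13 counts in LRRC8A shRNA replicates 1 to 3; the groups overlapped.

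Summed over these 6 genes, control libraries held 14, 2 and 4 counts and LRRC8A shRNA libraries 4, 6 and 13, with 25 of the 36 values at 0. The lowest PRF1 level in any library, 23.7 FPKM, was 75.3 times the highest level of any of the 6 in any library, 0.315 FPKM for GZMM. PRF1 was the only one of the 7 genes with enough reads to be tested, so no change between groups could be assessed for granzymes or granulysin at this depth.

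**Figure D2:**
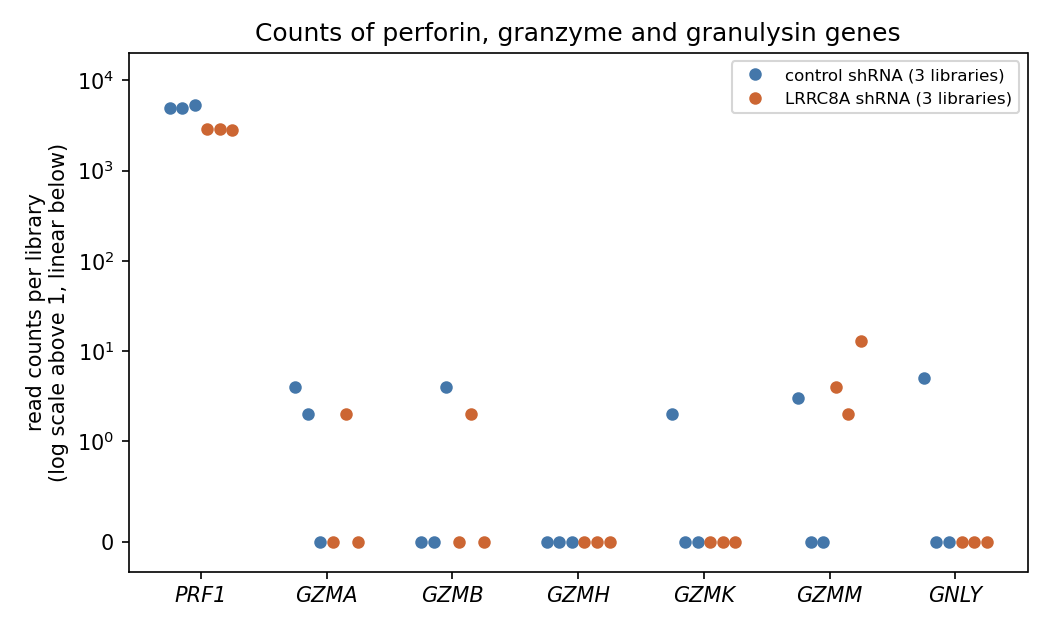
Read counts of PRF1, 5 granzyme genes and GNLY in each library (blue, 3 control shRNA libraries; orange, 3 LRRC8A shRNA libraries), on a scale that is logarithmic above 1 and linear below. PRF1 sits at 2783 to 5261 counts and no other gene is above 13.

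The libraries carried the markers of an epithelial line and almost none of lymphocytes. Of 14 epithelial markers, 8 had a mean of at least 10 FPKM over the 6 libraries, among them the keratins KRT8 and KRT18, and their summed level was 6766 to 7154 FPKM in controls and 5543 to 6018 in LRRC8A shRNA libraries. All 14 were tested and 3 fell (21.4%, where 2.58% of all tested genes were lower), with a median log2 fold change of -0.05. Of these, KRT18 fell by 0.38 on the log2 scale (SE 0.05) and KRT8 by 0.29 (SE 0.06), at edgeR adjusted p-values of 0.000338 and 0.00523, and the 2 genes overlap on opposite strands. KRT8 did not pass without control replicate 3 (edgeR adjusted p = 0.0702). The epithelial adhesion genes EPCAM (log2 fold change -0.05) and CDH1 (0.01), named for their role, did not pass. This list and those below were chosen with earlier results of these data known, so their shares of calls are descriptions.

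Among 32 markers of T and natural killer cells, 8 had no count in any library. They were the T cell genes CD2, CD3D, CD3E, CD8B and SH2D1A, the natural killer receptor gene NCR1, the granule membrane gene NKG7 and the chemokine gene XCL2. PTPRC, which marks all leukocytes, had 2 counts in control replicate 2 and in LRRC8A shRNA replicate 3, and 0 elsewhere. CD8A, a co-receptor gene, had a mean of 0.768 FPKM.

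CST7 and CCL5 stood above this background. CST7, which encodes cystatin F, an inhibitor of the cathepsins that activate granzymes, was at 39.5 ± 2.61 FPKM in controls and 33.0 ± 3.74 FPKM in LRRC8A shRNA libraries (SD, n = 3 each), below PRF1 in controls (47.0 FPKM) and above it with LRRC8A shRNA (25.6 FPKM). CCL5, a chemokine gene that many stimulated cell types express, was at 23.4 FPKM. Without these 2, the other 30 markers summed to 2.21 to 2.61 FPKM in controls and 2.95 to 3.00 in LRRC8A shRNA libraries, below the level of PRF1 alone.

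CST7 was at 44.8, 43.0 and 39.4 CPM in control replicates 1 to 3 and at 33.7, 39.4 and 31.5 in LRRC8A shRNA replicates 1 to 3. LRRC8A shRNA replicate 2 reached the lowest control, and the log2 fold change of -0.28 (SE 0.08) did not pass (edgeR adjusted p = 0.0539). It passed with a replicate block (0.0267), with DESeq2 (0.0231), with no filter on low counts (0.0290) and without LRRC8A shRNA replicate 2 (0.00689). CCL5 differed by -0.03 (SE 0.08, edgeR adjusted p = 0.886). None of the 7 tested T and natural killer cell markers passed in edgeR or in limma on FPKM, 1 had an unadjusted p under 0.05, and DESeq2 called 1. Over all 13551 tested genes DESeq2 called 710, and the share at an unadjusted p under 0.05 was not computed.

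The 14 markers of myeloid, B and red cells summed to 2.51 to 5.68 FPKM in controls and 3.08 to 5.87 in LRRC8A shRNA libraries, led by HBA1 (2.01 FPKM), whose reads may be shared with its near-identical copy HBA2, and CD14 (1.56 FPKM). None of the 3 tested ones passed in edgeR, DESeq2 or limma, and 0 had an unadjusted p under 0.05. Of 6 other granule serine proteases 3 had no count, PRTN3 led with 0.694 FPKM (log2 fold change -0.20, SE 0.31, edgeR adjusted p = 0.797), and CMA1, the mast cell chymase gene, was at 0.0135 FPKM. PRTN3 was the only one tested, and it had no call in DESeq2 and no unadjusted p under 0.05.

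**Figure D3:**
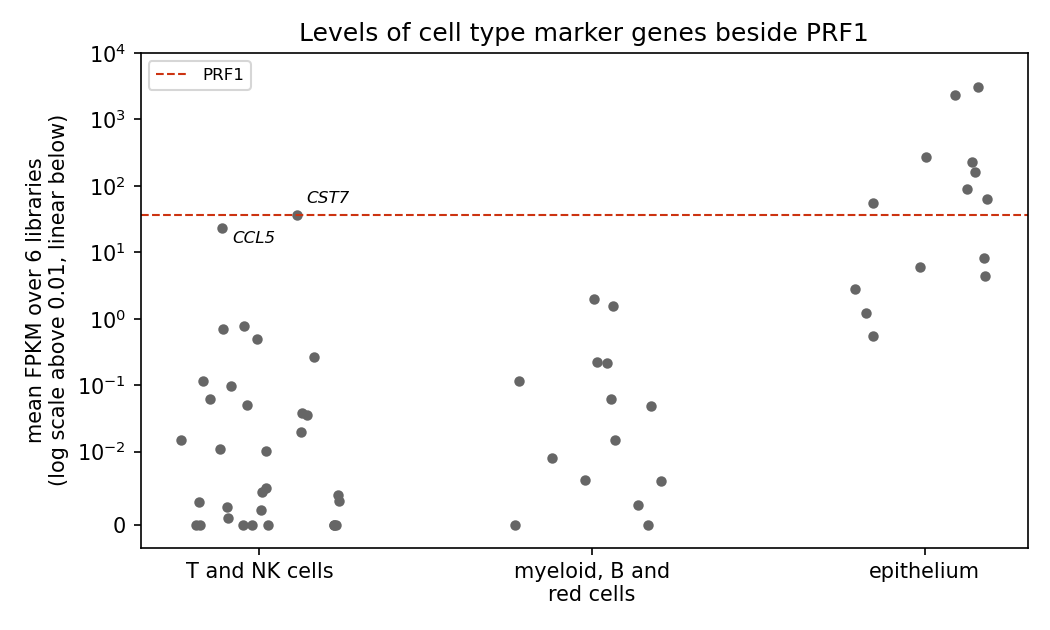
Mean FPKM over the 6 libraries of each marker gene of T and natural killer cells, of myeloid, B and red cells, and of epithelium, on a scale that is logarithmic above 0.01 and linear below; the dashed line is PRF1 at 36.3 FPKM. CST7 and CCL5 are the T and natural killer cell markers near the line, and the other 30 lie below 1 FPKM.

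Other pore-forming proteins were expressed at lower levels than perforin. The 18 genes comprised complement components and other relatives with the perforin-type pore domain, the gasdermins, which form pores in pyroptosis, and NINJ1, which ruptures the membrane of dying cells. The perforin relatives MPEG1, C6, C8A, C8B, C9 and BRINP1 had 0 counts in all 6 libraries. In controls PRF1 (47.0 ± 1.83 FPKM) was first in the order of levels, followed by GSDMD (11.5 ± 0.214), NINJ1 (11.4 ± 0.420) and GSDMB (4.58 ± 0.361; SD, n = 3 each). GSDMD and NINJ1 did not differ beyond their spread, and PRF1 remained first in LRRC8A shRNA libraries at 25.6 ± 1.69 FPKM.

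Of the 18 genes, 7 were tested and 1 changed (14.3%, beside 4.35% of all tested genes), the low-level gasdermin gene GSDMA. It had 87, 61 and 89 counts in control replicates 1 to 3 and 49, 36 and 34 in LRRC8A shRNA replicates 1 to 3, without overlap after scaling. Its log2 fold change was -1.09 (SE 0.26, edgeR adjusted p = 0.0187). In fits lacking 1 library it passed in 2 of 6, and missed the threshold when control replicate 1 (0.0961), control replicate 3 (0.0863), LRRC8A shRNA replicate 2 (0.0544) or LRRC8A shRNA replicate 3 (0.0586) was dropped. The median log2 fold change of the 7 was 0.02, beside 0.00 over all tested genes.

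The machinery that lymphocytes use to build and release lytic granules was largely present. Of 25 genes, 24 were tested and 17 had at least 10 FPKM. Many genes of this list also serve lysosomes and secretion in other cells. The exocytosis genes UNC13D (9.56 FPKM), STXBP2 (49.3 FPKM) and RAB27A (2.58 FPKM), named for their role in perforin release, had log2 fold changes of -0.08, 0.04 and 0.02 and did not pass. STX11, their syntaxin partner, was low at 0.605 FPKM. SRGN, which encodes serglycin, the proteoglycan that binds perforin and granzymes in the granule, had 8, 4 and 3 counts in control replicates 1 to 3 and 9, 3 and 0 in LRRC8A shRNA replicates 1 to 3, and was the one gene not tested.

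SYTL2, a RAB27 effector gene, was the only member of this list that changed. It was at 20.8, 21.8 and 21.3 CPM in control replicates 1 to 3 and at 13.5, 16.1 and 18.8 in LRRC8A shRNA replicates 1 to 3, without overlap. Its log2 fold change was -0.41 (SE 0.10, edgeR adjusted p = 0.0269). When single libraries were dropped it passed once, without LRRC8A shRNA replicate 3 (0.00431), and its adjusted p was 0.0812 to 0.114 in the other 5 fits. The 1 call among 24 is 4.17%, beside 4.35% of all tested genes, and the median was 0.02.

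Of the transcription factors that drive perforin in lymphocytes, the lineage-defining ones were missing or low. TBX21, the master regulator of cytotoxic and type 1 helper cells, had 0 counts in all 6 libraries, and RUNX3 had 2 counts in control replicate 3, 10 in LRRC8A shRNA replicate 3 and 0 elsewhere. EOMES, a relative of TBX21, was at 0.563 FPKM and the inducing cytokine receptor genes IL2RA and IL2RB at 0.00489 and 0.0144 FPKM. Factors that are not lymphocyte-specific were present, with ELF4, an ETS factor that acts on the perforin promoter, at 7.89 FPKM, STAT3 at 40.9 FPKM and SP1 at 18.3 FPKM. IL15RA, a receptor chain that presents interleukin 15, was at 5.61 FPKM. These genes are named for their role or level.

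Of 27 such regulators and receptors, 19 were tested and 1 changed (5.26%, beside 4.35% of all tested genes). RUNX1, a factor that binds the RUNX core, was at 46.6, 48.0 and 47.8 CPM in control replicates 1 to 3 and at 39.1, 40.5 and 43.0 in LRRC8A shRNA replicates 1 to 3. The groups did not overlap, and its log2 fold change was -0.22 (SE 0.06, edgeR adjusted p = 0.0368). It passed without LRRC8A shRNA replicate 3 (0.0269), and in the other 5 fits that left out 1 library its adjusted p was 0.0839 to 0.150. ELF4 was at 0.17 (SE 0.06, edgeR adjusted p = 0.143), and the median of the 19 was 0.02.

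On the side of the target cell, most genes that oppose or receive the cytotoxic attack did not pass. Of 19 granzyme inhibitors and substrates, 18 were tested, 1 fell and 1 rose. SERPINB1, an inhibitor of neutrophil serine proteases and granzyme H, fell from 298, 289 and 272 CPM in control replicates 1 to 3 to 230, 233 and 228 in LRRC8A shRNA replicates 1 to 3. Its log2 fold change was -0.31 (SE 0.04, edgeR adjusted p = 0.000264), it passed in all 6 fits that left out 1 library, and the groups did not overlap. DFFA, the inhibitor of the apoptotic nuclease, rose by 0.21 (SE 0.05, edgeR adjusted p = 0.0280), but passed only without LRRC8A shRNA replicate 3 (0.00589) among the fits that left out 1 library, with an adjusted p of 0.0612 to 0.128 in the other 5. DFFA overlaps PEX14 on the opposite strand. SERPINB9, the inhibitor of granzyme B, named for its role, was at 8.59 FPKM with a log2 fold change of -0.01 (SE 0.06, edgeR adjusted p = 0.967). The 2 calls among 18 are 11.1%, beside 4.35% of all tested genes, with a median of -0.0010.

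None of 19 tested genes of membrane repair and complement regulation passed in edgeR, DESeq2 or limma on FPKM. Of the 19, 7 had an unadjusted edgeR p under 0.05 and 15 a negative log2 fold change. The matching shares of all tested genes were not computed. ANXA2 and ANXA5, calcium-dependent membrane-binding annexins, led with 613 and 141 FPKM and had log2 fold changes of -0.02 and 0.06. The median of this list was -0.03, beside 0.0008 over all tested genes.

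Of 19 ligands and death receptors that cytotoxic cells engage, 16 were tested, 2 rose and 1 fell (18.8%, beside 4.35% of all tested genes), with a median of -0.01. NCR3LG1, the ligand of the natural killer receptor NKp30, had 62.6 ± 2.92 CPM in controls and 75.1 ± 4.92 CPM with LRRC8A shRNA (SD, n = 3 each), which is a rise of 0.26 in log2 terms (SE 0.06) at an edgeR adjusted p of 0.00933. MICB, a stress-induced ligand of NKG2D, rose by 0.33 (SE 0.09, edgeR adjusted p = 0.0376), and FAS, the death receptor, fell by 0.25 (SE 0.07, edgeR adjusted p = 0.0311). In the fits that left out 1 library, NCR3LG1 missed the threshold without control replicate 1 (0.0644) or 2 (0.0635). MICB passed only without control replicate 3 (0.0480) or LRRC8A shRNA replicate 1 (0.0328), with an adjusted p of 0.108 to 0.195 in the others, and FAS only without control replicate 3 (0.0348), with 0.0518 to 0.168 in the others. FAS overlaps ACTA2 on the opposite strand.

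**Figure D4:**
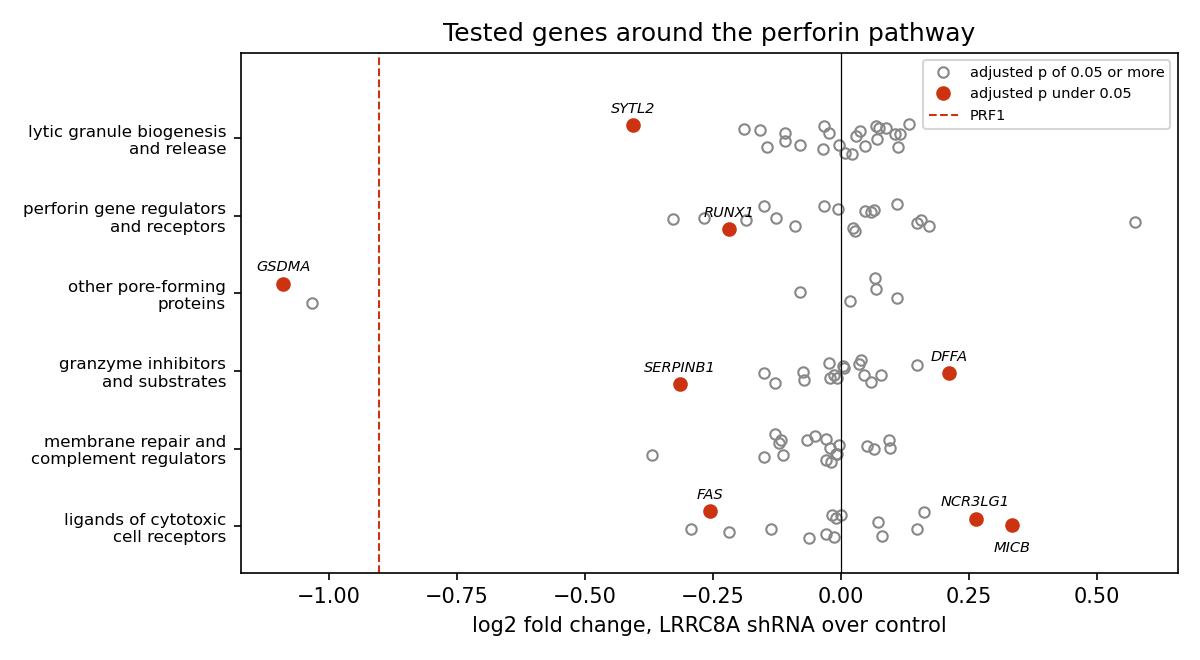
Log2 fold change (LRRC8A shRNA over control, n = 3 libraries each) of every tested gene of 6 gene lists around the perforin pathway, with genes at an edgeR adjusted p under 0.05 filled and named. The dashed line marks PRF1 at -0.90, and besides GSDMA the changed genes lie between -0.41 and 0.33.

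Some chromosomal neighbours of PRF1 were also lower in LRRC8A shRNA libraries. Of 5 protein-coding genes on each side, spanning 1.06 Mb of chromosome 10 (70247329 to 71302864), 8 were tested and 3 of them fell, where 2.58% of all tested genes were lower. Both adjacent genes were among them. PALD1, a phosphatase-like gene on the side of the PRF1 3′ end (70478821 to 70568449), was at 113, 119 and 104 CPM in control replicates 1 to 3 and at 89.3, 94.0 and 89.7 in LRRC8A shRNA replicates 1 to 3. ADAMTS14, a procollagen-processing protease gene on the side of the PRF1 start site (70672803 to 70762441), had 65, 65 and 41 counts in controls and 20, 33 and 25 in LRRC8A shRNA libraries. SGPL1, which encodes sphingosine-1-phosphate lyase (70815961 to 70881173), was at 101, 106 and 109 CPM in controls and 92.3, 94.8 and 91.3 in LRRC8A shRNA libraries. In each of these 3 genes the groups did not overlap, but the share of all tested genes without overlap was not computed.

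The size of the differences varied along the locus. The log2 fold changes were -0.30 (SE 0.05) for PALD1, -1.20 (SE 0.32) for ADAMTS14 and -0.18 (SE 0.05) for SGPL1. Their edgeR adjusted p-values were 0.00214, 0.0368 and 0.0298. PALD1 passed in all 6 fits that left out 1 library. ADAMTS14 and SGPL1 each passed in 2 of these. ADAMTS14 missed the threshold when control replicate 1 (0.151), control replicate 2 (0.148), LRRC8A shRNA replicate 1 (0.164) or LRRC8A shRNA replicate 3 (0.0897) was dropped. For SGPL1 these were control replicate 2 (0.111), control replicate 3 (0.139), LRRC8A shRNA replicate 1 (0.0962) and LRRC8A shRNA replicate 3 (0.0792). In limma on FPKM none of the 3 passed: PALD1 had an adjusted p of 0.0679 and SGPL1 of 0.187, and ADAMTS14 was under the FPKM filter.

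The 5 other tested neighbours did not pass. PCBD1, a dehydratase and transcriptional cofactor gene, had a log2 fold change of -0.16 (SE 0.05, edgeR adjusted p = 0.0739), without overlap between groups. The netrin receptor gene UNC5B was at -0.23 (SE 0.08), LRRC20 at -0.21 (SE 0.10), the translation repressor gene EIF4EBP2 at -0.12 (SE 0.05) and the neuropeptide receptor gene NPFFR1 at 0.60 (SE 0.31). In edgeR their adjusted p-values were 0.124, 0.248, 0.147 and 0.316. With a replicate block PCBD1 (0.0379) and UNC5B (0.0471) passed and ADAMTS14 did not (0.0515). NODAL and TBATA had 0 to 3 counts per library and were not tested. In all, 7 of the 8 tested neighbours had a negative log2 fold change, and 3 of these passed in edgeR. The median of the 8 was -0.20, beside 0.0008 over all tested genes.

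Further out the direction was mixed. Of 24 tested genes 6 to 20 places from PRF1, a range chosen after the values were seen, 8 had a negative log2 fold change. In edgeR 0 fell and 1 rose (4.17%, beside 4.35% of all tested genes), and the median was 0.04. At an unadjusted p under 0.05, 3 of the 24 passed, and DESeq2 called 1. Over all 13551 tested genes DESeq2 called 710, and the share at an unadjusted p under 0.05 was not computed. The gene that rose, named after its value was seen, was CHST3, a chondroitin sulfotransferase gene, at 0.28 (SE 0.07, edgeR adjusted p = 0.0214).

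**Figure D5:**
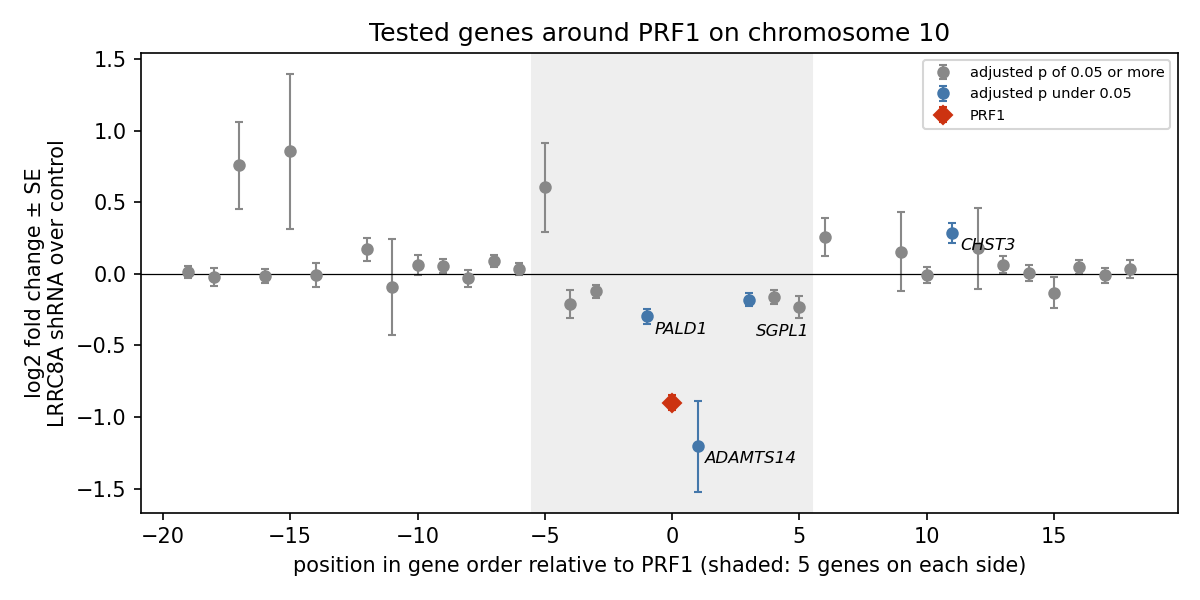
Log2 fold change ± SE (LRRC8A shRNA over control, n = 3 libraries each) of the tested protein-coding genes within 20 places of PRF1 in gene order; PRF1 is the red diamond and the 5 places on each side are shaded. PALD1, ADAMTS14 and SGPL1 in the shaded part are lower (blue), and CHST3 outside it is higher.

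The genes whose profile over the 6 libraries was nearest to that of PRF1 were HES2, CEMIP, ACSL5, TGFB2 and C6orf15. Likeness was measured as the root mean square difference of log2 CPM after each gene's own mean was subtracted, and came to 0.10, 0.11, 0.11, 0.11 and 0.11 on the log2 scale, against a median of 0.47 over 13550 genes. HES2, a transcriptional repressor gene, was at 3.70, 3.60 and 3.95 CPM in control replicates 1 to 3 and at 1.67, 1.77 and 1.76 in LRRC8A shRNA replicates 1 to 3. CEMIP, a hyaluronan-degrading protein gene of similar abundance to PRF1, was at 130, 137 and 147 CPM in controls and at 78.8, 87.3 and 88.2 in LRRC8A shRNA libraries. Like PRF1, these genes were high in all 3 control libraries and low in all 3 LRRC8A shRNA libraries, and HES2 and CEMIP shared with PRF1 the highest value in control replicate 3 and the lowest in LRRC8A shRNA replicate 1. ACSL5 went from 10.3 ± 0.896 to 5.72 ± 0.389 CPM, TGFB2 from 9.06 ± 1.24 to 4.75 ± 0.304 and C6orf15 from 8.09 ± 0.0530 to 3.85 ± 0.0426 (SD, n = 3 each). LRRC8A itself was 9th by this measure, at 0.12. Since the measure uses the contrast by which PRF1 was chosen, it is a description.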

How the data were processed

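RNA-seq of 6 libraries of SW1990 cells was analysed, 3 with a non-targeting shRNA and 3 with an LRRC8A shRNA. The submitters' processing notes name fastp (0.23.2), HISAT2 (2.2.1) and StringTie (2.2.3), and the builds GRCh38 and mm10 with no role. Which program counted reads, and whether by strand, is not given in the sources used here. The deposited table held raw read counts per gene, and FPKM and TPM values that the authors had scaled for gene length and depth. TPM was not used further.

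Genes were named by the HGNC symbol of the table, or by its gene name where it had none. Positions are from GENCODE 29 (GRCh38), since table coordinates equalled GENCODE 29 for 100 of 19511 shared genes. Promoter windows are from RefSeq (GRCh38.p14), where 5 of the 7 genes were found. After filterByExpr and TMM scaling, counts were tested in edgeR 4.0.16 (R 4.3.3) by its robust quasi-likelihood F-test. P-values were two-sided and Benjamini-Hochberg adjusted for 13551 genes, with 0.05 as the threshold. The procedure was tested on simulated data, in which the changed genes had larger fold changes than most calls named here. Smaller changes and changes in genes at low counts were not simulated. An SE is the log2 fold change divided by the square root of its F statistic. Levels are TMM-scaled CPM, or FPKM where genes are compared with each other. Alternatives were limma 3.58.1 (trend) on log2(FPKM + 1) for genes with at least 1 FPKM in 3 libraries, DESeq2 1.42.0, other scaling, filter and pseudocount settings, a replicate block, and leaving out each library. Each library counted as 1 sample. Replicates of a group differed by more than sampling noise in every pair (chi-square per gene of 6.30 to 21.1). Libraries made from 1 culture can also differ by more than this noise, so the measure cannot show that they are independent.

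PRF1 and all gene lists were chosen with earlier results of these data known. The rule named the 7 cytotoxic effectors, 5 table neighbours of PRF1 on each side, the 5 genes nearest to PRF1 in profile and LRRC8A. From each list it took up to 4 members with the smallest adjusted p below the threshold, or the 2 with the highest FPKM where none passed. Other genes are named for their level or role. The result for 1 epithelial marker is not reported here.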

Additional observations from a re-analysis of the deposited data

How the results depend on the processing

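The log2 fold change of PRF1 moved by less than its spread between replicates in all 13 alternative fits, from -0.94 to -0.84 when 1 library was left out and from -0.90 to -0.85 in the others. With 3 libraries a group, an exact permutation test of a single value cannot go below 0.1, and none was used. Counts of calls depended on the processing. Over all tested genes, 590 calls became 246 to 504 when 1 library was left out, 157 with limma on log2(FPKM + 1), 154 with a pseudocount of 0.1, 18 with no FPKM filter and 222 at an adjusted p under 0.01. Over the 10 lists together, 11 calls became 4 to 9, 3, 3, 0 and 5 in the same order, and for the neighbours of PRF1 3 calls became 1 to 3, 0, 0, 0 and 1. The cause was not tested.

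By list, in limma with a pseudocount of 1, with 0.1 and with no filter, the calls were 0, 0 and 0 for lytic granule genes, regulators and pore-forming proteins, and 1, 1 and 0 for granzyme inhibitors, ligands and epithelial markers. GSDMA, the only pore-forming gene called in edgeR, was under the FPKM filter and could not be called in the filtered limma fits. At an edgeR adjusted p under 0.01 the calls were 0 for the first 3 lists, and 1 for granzyme inhibitors and for ligands. DESeq2 called 2 lytic granule genes and 1 T and natural killer cell marker, and 1 such marker was called with no filter on low counts. Over all genes the calls were 710 with DESeq2 and 692 with no filter on low counts. When 1 library was left out, the calls were 0 to 1 for lytic granule genes, pore-forming proteins and T and natural killer cell markers, 0 to 2 for regulators, 1 to 2 for granzyme inhibitors, 0 to 3 for ligands and 2 to 4 for epithelial markers.

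Libraries of equal replicate number showed no common deviation over all tested genes: deviations from the group means correlated at 0.03, -0.09 and 0.01 for numbers 1 to 3. A pairing that affects only part of the genes would not show in this measure. With a replicate block, 671 genes were called, among them 2 lytic granule genes and 1 T and natural killer cell marker, and the log2 fold change of PRF1 was -0.90. Of the named genes refitted in the alternatives, those past the threshold kept their sign. ANXA2 (-0.02), CCL5 (-0.03), CD14 (-0.04) and HBA1 (-0.24), which did not pass, changed sign in at least 1, reaching 0.04, 0.07, 0.10 and 0.19.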
